A study of Mus musculus with 8 samples.

Results

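Untreated macrophages lacking KAT8 were compared with untreated wild-type (WT) macrophages across all genes. The comparison took 4 of the study's 8 messenger RNA libraries by their genotype and treatment labels, 2 from KAT8-deficient cells and 2 from WT cells. All cells were bone-marrow-derived macrophages (BMDM), primary mouse macrophages grown in culture with macrophage colony-stimulating factor (M-CSF) at 20 ng/ml, and every group received M-CSF. The other 4 libraries came from the same genotypes given R848 (resiquimod, a small-molecule agonist of the endosomal receptor TLR7) at 100 ng/ml for 6 h, 2 libraries each. The deposited table abbreviates the deficient genotype as cKO. None of the labels names the Cre driver, the deleted exons, the strain background, or the sex and age of the mice. Nothing in the labels states whether replicate libraries had different mice or dishes as their source, so each p-value below measures only the spread between these libraries, which may be technical.

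KAT8, also called MOF, is a lysine acetyltransferase of the MYST family that acetylates histone H4. It acts within the MSL complex, named for the male-specific lethal genes of the fruit fly, and within the NSL complex, which binds many active promoters. In macrophages, resting gene expression includes a set of antigen presentation genes under the transactivator CIITA and a low level of interferon-stimulated genes, both of which are raised further by inflammatory signals.

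Levels are given as CPM, read counts scaled to a common normalised library size, and are compared only within a gene, not between genes. Differences are on the log2 scale as KAT8-deficient minus WT. A gene is said to have risen or fallen, or to be called, where the edgeR quasi-likelihood test gave an adjusted p under 0.05 over the 14040 genes tested. Total counts of the 4 libraries ran from 18550977 to 21384532. The labelled cell type was checked against markers. Adgre1 (F4/80) stood at 324 and 312 CPM in WT and 344 and 340 in KAT8-deficient libraries, and Cd68 lay between 1784 and 1956 CPM in all 4. Csf1r, the M-CSF receptor, stood at 842 and 879 against 707 and 732 CPM, with a log2 difference of -0.26 (SE 0.06) that did not pass (edgeR adjusted p = 0.061). Of the markers of other blood cells, Cd3g, Cd8a, Ncr1 (T and NK cells), Ly6g (neutrophils), Flt3, Siglech (dendritic cells) and Hba-a1 (erythroid cells) had 0 counts in all 4 libraries. Other members of these lists were expressed. In WT and KAT8-deficient libraries the lists summed to 1.91 to 2.77 and 2.30 to 2.83 CPM for T and NK cells, 108 to 122 and 88.2 to 96.2 for neutrophils, and 138 to 142 and 148 to 161 for B cells. The sums were 708 to 711 and 623 to 662 CPM for dendritic cells and 385 to 428 and 395 to 412 for erythroid cells. Most B cell marker counts came from Blnk (2402 to 2936 per library) and most erythroid ones from Tfrc, the transferrin receptor gene (7094 to 9180). Markers of fibroblasts and of mesothelium, by contrast, were expressed in all 4 libraries and are described with the matrix genes. In bulk samples such as these, fewer cells of a type and less RNA per cell cannot be told apart.

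KAT8-deficient macrophages differed from WT before any stimulus, mostly by small amounts and more often upward. Of the 14040 genes, 600 (4.27%) were called, 409 (2.91%) higher and 191 (1.36%) lower. The median absolute difference of the called genes was 0.544, 261 of them (43.5%) differed by less than 0.5, and 103 differed by at least 1, of which 65 were higher and 38 lower. The median over all genes tested was -0.01. All 600 called genes had no overlap between the WT and the KAT8-deficient libraries, a condition that 50.4% of all genes tested also met, and 2848 genes had an unadjusted p under 0.05. The number called depended strongly on each library: it was 165 without WT untreated replicate 1, 228 without WT untreated replicate 2, 66 without KAT8-deficient untreated replicate 1 and 172 without KAT8-deficient untreated replicate 2. It was 341 and 391 without WT R848 replicates 1 and 2 and 601 and 606 without KAT8-deficient R848 replicates 1 and 2. The R848 libraries enter through the shared estimate of the spread and through the filter that sets which genes are tested.

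This dependence bears on each gene below. Of the 128 called genes chosen for description, 33 kept their call in each of the 17 other fits tried, among them H2-Aa, H2-Eb1, Cd74, H2-Q6, Ccl8, Cxcl5, Lyz1, Lyz2, Arg1, Mgll, Cdkn1c, Cdk4, C4b, Serping1, Cd55, Col5a2, Adam8, Gdpd3, Mapk3, Coro1a, Lat, Itgal, Wdfy1, Ide, Pheta1 and Src. The other 95 were lost without at least 1 library: 69 without WT untreated replicate 1, 56 without WT untreated replicate 2, 94 without KAT8-deficient untreated replicate 1 and 68 without KAT8-deficient untreated replicate 2. Without WT R848 replicates 1 and 2, 32 and 25 were lost, and 7 without either KAT8-deficient R848 replicate.

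**Figure D1:**
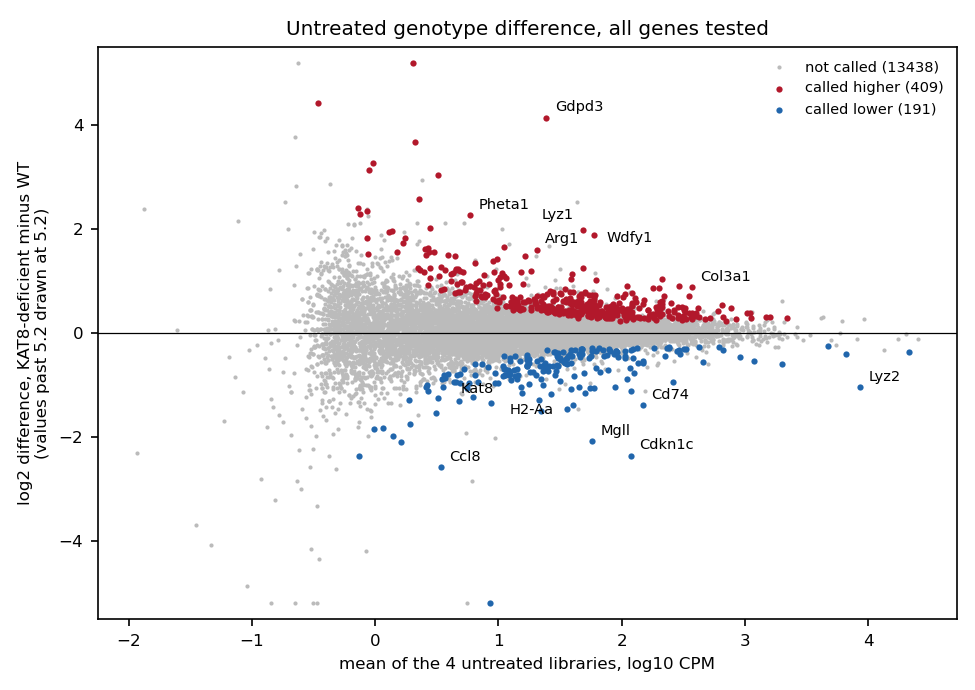
Each point is a gene, placed by its mean level in the 4 untreated libraries (x axis, log10 CPM) and by its log2 difference, KAT8-deficient minus WT (y axis). Red points are the 409 genes called higher and blue points the 191 called lower, grey points did not pass, differences past the axis are drawn at its edge, and 2 genes at 0 in all 4 libraries are not drawn. Most called genes lie within 1 of the zero line.

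Kat8 itself (ENSMUSG00000030801, chromosome 7, 127912516 to 127925837, GRCm38) stood at 17.0 and 17.9 CPM in the WT libraries and at 8.76 and 10.8 in the KAT8-deficient ones. The groups did not overlap, and the level was 1.78-fold lower (log2 -0.83, SE 0.13, edgeR adjusted p = 0.0113). The call was lost without WT untreated replicate 1 (edgeR adjusted p = 0.0518) or 2 (0.0589) and without KAT8-deficient untreated replicate 1 (0.0881). Reads were assigned to the gene as a whole, so this level does not measure how much intact transcript remained. None of the other 11 genes listed for the MSL and NSL complexes passed, and their differences ran from -0.17 for Ogt, the NSL-associated GlcNAc transferase, to 0.10 for Msl1, the MSL scaffold. None of 13 other histone acetyltransferase genes passed, with a median of 0.02 and a range from -0.29 to 0.12.

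Genes of MHC class II antigen presentation formed the clearest lowered group. Class II molecules carry peptides from ingested proteins to helper T cells. Their alpha and beta chains (H2-Aa, H2-Ab1, H2-Eb1) assemble with the invariant chain CD74, and the peptide is exchanged with the help of H2-DM. Of 18 tested class II pathway genes, 7 fell and 1 rose, and their median was -0.37, against 1.36% of all genes called lower and a median of -0.01 over all genes. Those that fell were the chains, the invariant chain, both H2-DM subunits H2-DMa and H2-DMb1, and cathepsin S (Ctss).

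The proximal promoters of H2-Aa and H2-Eb1 are shown because these chain genes fell most and hold the Y box, the CCAAT-containing element of class II promoters bound by NF-Y. Each line gives the 120 bases before the RefSeq start on GRCm38.p6, 5′ to 3′ on the gene's strand, with the Y box letters CTGATTGG in capitals. H2-Aa is at chr17:34287824-34287943 on the minus strand and H2-Eb1 at chr17:34305747-34305866 on the plus strand.
H2-Aa: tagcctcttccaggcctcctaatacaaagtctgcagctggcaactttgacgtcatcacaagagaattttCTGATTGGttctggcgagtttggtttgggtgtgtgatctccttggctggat
H2-Eb1: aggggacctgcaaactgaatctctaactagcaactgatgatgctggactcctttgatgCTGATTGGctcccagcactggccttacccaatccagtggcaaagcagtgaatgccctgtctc
The box ends 43 bases before the start in H2-Aa and 54 bases before it in H2-Eb1. The same letters, on either strand, occur in 628 of 10555 promoters of tested genes (5.95%), each read from 250 bases before to 50 after the start. They occur in 2 of 13 promoters of the class II list and 8 of 20 of the MHC class I and peptide loading list. Among called genes 11 of 137 lower (8.03%) and 15 of 297 higher (5.05%) hold them, and these shares were not tested. A match is a description of sequence and not evidence of binding.

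H2-Aa (ENSMUSG00000036594, chromosome 17, 34282744 to 34287823) stood at 58.4 and 57.1 CPM in WT and at 20.8 and 23.2 CPM in KAT8-deficient libraries. Both deficient libraries lay below both WT libraries, and the level was 2.62-fold lower. H2-Eb1 stood at 27.8 and 32.6 against 12 and 12.7 CPM, 2.44-fold lower, again without overlap. H2-Ab1, the partner chain of H2-Aa, stood at 47.1 and 57.2 against 24.5 and 25.1 CPM (log2 -1.07, SE 0.12, edgeR adjusted p = 0.00428). Cd74 stood at 193 and 235 against 84.0 and 80.6 CPM, 2.60-fold lower. The WT libraries differed from each other by more for Cd74 and H2-Ab1 than for H2-Aa, and the groups remained apart for each. The peptide exchange factor fell less, H2-DMa by 0.80 (SE 0.13, edgeR adjusted p = 0.0134) and H2-DMb1 by 0.63 (SE 0.12, edgeR adjusted p = 0.0254). H2-DMa overlaps Brd2 on the opposite strand, with 941 against 18367 counts over the untreated libraries. Strand use in counting is not stated, so the reads of H2-DMa are uncertain. Ctss, the protease that trims the invariant chain, fell by 0.40 (SE 0.08, edgeR adjusted p = 0.0307). Its gene overlaps the pseudogene Hmgb1-ps5 on the same strand, to which few reads were assigned. The exception was Ifi30, encoding the lysosomal thiol reductase GILT, which rose from 341 and 357 to 459 and 447 CPM (log2 0.38, SE 0.06, edgeR adjusted p = 0.0111).

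The regulators of these genes did not pass in untreated cells. Ciita, the class II transactivator, was low, at 1.68 and 2.77 CPM in WT and 1.42 and 1.34 in KAT8-deficient libraries (log2 -0.68, SE 0.29, edgeR adjusted p = 0.24), with 25 to 51 counts per library. Its deficient libraries lay below both WT libraries, but the WT libraries differed from each other more than the groups' nearest values did. Ciita overlaps Dexi on the opposite strand, with 139 against 671 counts over the untreated libraries, so the reads of Ciita are uncertain too. The factors that bind the promoter elements stayed between -0.42 (Rfxank) and 0.21 (Rfxap), and Nfya, Nfyb and Nfyc between -0.16 and 0.17. The class II count was held mainly by the chain genes. It was 5, 6, 3 and 4 without WT untreated replicate 1 or 2 and KAT8-deficient untreated replicate 1 or 2, and H2-Aa, H2-Eb1 and Cd74 were called whichever library was left out. H2-Ab1 was lost without KAT8-deficient untreated replicate 1 (edgeR adjusted p = 0.0549). H2-DMa was lost without WT untreated replicate 2 and without either deficient untreated replicate, H2-DMb1 without WT untreated replicate 1 and without either deficient untreated replicate (largest edgeR adjusted p = 0.0864 and 0.121). Dendritic cells also express class II highly. Their markers Flt3 and Siglech were at 0, Itgax stood at 590 and 579 CPM in WT and 492 and 538 in KAT8-deficient libraries (log2 -0.18, SE 0.09, edgeR adjusted p = 0.299), and Zbtb46 at 8.99 and 7.33 against 9.29 and 8.83. Of 8 tested dendritic cell markers 0 fell and Dpp4 rose, by 0.89 (SE 0.15, edgeR adjusted p = 0.0156), and the summed level of the list was lower in the deficient libraries, as given above. The part of these cells in the class II values was not tested.

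**Figure D2:**
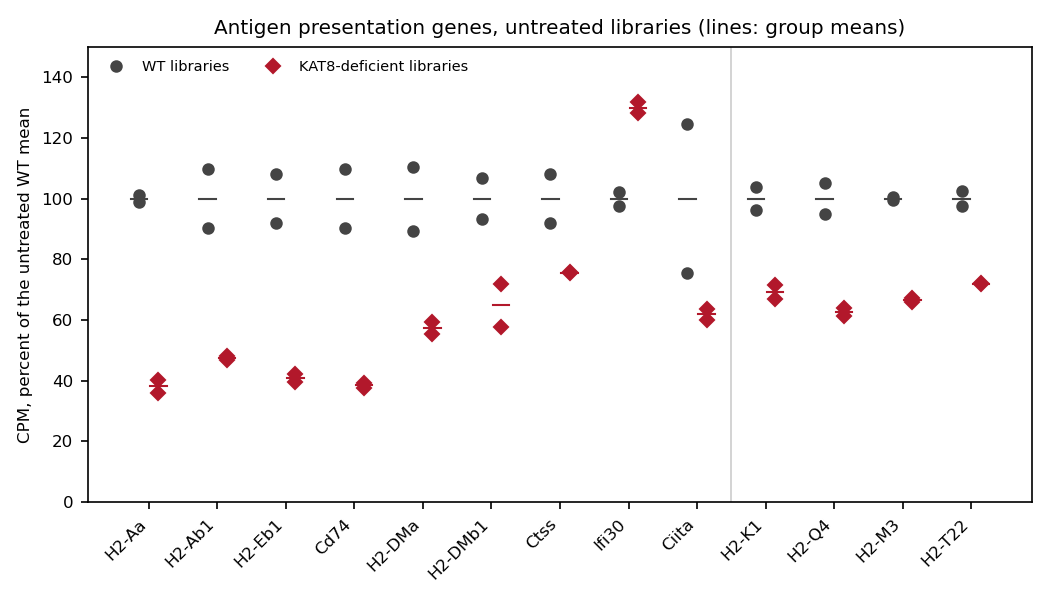
Levels of class II (left of the grey line) and class I genes (right of it) in each of the 4 untreated libraries, as CPM in percent of the gene's WT mean (y axis), with WT libraries as circles, KAT8-deficient libraries as diamonds and group means as short lines. The deficient libraries lie lowest for H2-Aa, Cd74 and H2-Eb1 and above WT for Ifi30, and the WT libraries of Ciita lie far apart.

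MHC class I genes, which display peptides from the cell's own proteins to cytotoxic T cells, were also lower, by less. Of 24 tested genes for class I chains and peptide loading, 9 fell and 1 rose, with a median of -0.27, against 1.36% of all genes called lower and 2.91% called higher. H2-K1, a classical heavy chain, stood at 1348 and 1455 CPM in WT and 940 and 1001 in KAT8-deficient libraries (log2 -0.53, SE 0.06, edgeR adjusted p = 0.00428). The groups did not overlap. The non-classical chain H2-M3, which presents formylated peptides, fell by 0.58 (SE 0.07, edgeR adjusted p = 0.00523), H2-T22 by 0.47 (SE 0.06, edgeR adjusted p = 0.00557) and H2-Q6 by 1.15 (SE 0.11, edgeR adjusted p = 0.0019). H2-Q6, H2-Q4 and H2-Q7 are closely related genes, so how their reads were divided is uncertain. H2-M2, a further non-classical gene that is not in this list or its count, stood at 8.25 and 9.23 against 3.46 and 4.01 CPM (log2 -1.22, SE 0.23, edgeR adjusted p = 0.0257). B2m, the shared light chain, at -0.27 (SE 0.07, edgeR adjusted p = 0.0702), and Tap1, a subunit of the peptide transporter, at -0.39 (SE 0.18, edgeR adjusted p = 0.266), did not pass. The count of 9 became 7 and 5 without WT untreated replicates 1 and 2, and 1 and 5 without KAT8-deficient untreated replicates 1 and 2. H2-Q6 was the gene called in each of these fits, and H2-M2 was lost in all 4 (edgeR adjusted p from 0.0859 to 0.176). None of 13 genes for costimulatory and checkpoint ligands passed, and their median was 0.02.

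Interferon-stimulated genes, the antiviral genes induced through the interferon receptor, lay lower on the whole, with few past the test. Of 59 tested type I interferon-stimulated genes, 6 fell and 0 rose, 47 had a negative difference, and the median was -0.16. Those that fell were Irf7, Oas3, Oasl2, Ifi203, Phf11d and Lgals3bp. Over all genes tested, 1.36% were called lower, 2.91% were called higher and 48.6% had a positive difference, with a median of -0.01. Among 15 interferon-inducible GTPases, which attack vacuoles of intracellular microbes, Gbp2 and Gbp3 fell and 0 rose, with a median of -0.07. The promoters of Oas3, Gbp3 and Gbp2 are shown because these called genes hold the core of the interferon-stimulated response element, searched on both strands as GAAA, any 2 bases, then GAAA. Each line is the 120 bases before the RefSeq start on GRCm38.p6, 5′ to 3′ on the gene's strand, with the matched letters in capitals, which in both Gbp genes lie on the opposite strand and so read as TTTC. Oas3 is at chr5:120777660-120777779 on the minus strand, Gbp3 at chr3:142559924-142560043 and Gbp2 at chr3:142620543-142620662, both on the plus strand.
Oas3: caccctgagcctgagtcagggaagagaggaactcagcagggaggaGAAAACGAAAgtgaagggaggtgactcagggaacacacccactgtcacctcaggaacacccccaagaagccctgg
Gbp3: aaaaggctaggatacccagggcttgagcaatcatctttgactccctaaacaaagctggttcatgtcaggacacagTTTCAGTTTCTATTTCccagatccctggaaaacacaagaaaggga
Gbp2: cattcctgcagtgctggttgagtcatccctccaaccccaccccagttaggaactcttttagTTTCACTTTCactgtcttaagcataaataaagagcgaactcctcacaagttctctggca
The match ends 65 bases before the start in Oas3 and 49 in Gbp2, and in Gbp3 a pair of overlapping matches ends 35 and 29 bases before it. Of the 10555 promoters of tested genes, 338 (3.20%) hold such a match. Among called genes 14 of 137 lower (10.2%) and 9 of 297 higher (3.03%) hold it, a difference that was not tested. So do 21 of 46 promoters of the interferon-stimulated list and 9 of 9 of the GTPases, including uncalled genes such as Isg15 and Ifit1. Of the 6 called interferon-stimulated genes, Oas3 alone is among the 14 lower genes with a match. Phf11d was searched and holds none. A promoter was available for only 137 of the 191 lower genes.

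Irf7, a transcription factor that amplifies interferon production, stood at 23 and 22 CPM in WT and 14.2 and 12.5 in KAT8-deficient libraries (log2 -0.76, SE 0.15, edgeR adjusted p = 0.029). Oas3, an RNA-sensing oligoadenylate synthetase, stood at 73.7 and 77.7 against 48.2 and 47.3 CPM (log2 -0.66, SE 0.14, edgeR adjusted p = 0.0363). Gbp2 stood at 30.5 and 26.3 against 18.9 and 19.4 CPM (log2 -0.57, SE 0.12, edgeR adjusted p = 0.0371). For each of these the groups did not overlap. Ifi203 overlaps Mndal on the same strand and is uncertain. Irf1, a transcription factor gene of the interferon response, lay at -0.11 (SE 0.14, edgeR adjusted p = 0.73), and Ifnb1 had 0 or 1 count per library and was not tested. Well-known members such as Isg15 (-0.16, SE 0.15), Ifit1 (-0.31, SE 0.26) and Rsad2 (-0.22, SE 0.14) did not pass either. The count of 6 became 1, 1, 0 and 0 without WT untreated replicate 1 or 2 and KAT8-deficient untreated replicate 1 or 2, and the count of called GTPases became 0 in each of these 4 fits, where the medians of the interferon-stimulated list lay between -0.20 and -0.15. It was 2 and 3 without WT R848 replicates 1 and 2.

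Among CC chemokines, Ccl8 and Ccl5 fell and the other 10 tested did not pass. Ccl8, which attracts monocytes and T cells, stood at 5.45 and 6.30 CPM in WT and 0.945 and 1.02 in KAT8-deficient libraries, 5.95-fold lower. Ccl5 (RANTES) stood at 11.2 and 13.7 against 5.04 and 4.76 CPM, 2.54-fold lower (log2 -1.34, SE 0.16, edgeR adjusted p = 0.00469). Neither gene's groups overlapped, and Ccl5 was lost without KAT8-deficient untreated replicate 1 (edgeR adjusted p = 0.0515). The list's median was -0.04, and without KAT8-deficient untreated replicate 1 it was 0.06. The CXC list went the other way in 2 of 11 tested members: Cxcl5, a neutrophil attractant, rose from 12.6 and 9.61 to 25.4 and 25.6 CPM (log2 1.19, SE 0.14, edgeR adjusted p = 0.00428), and Cxcl14 from 14 and 13.8 to 21.4 and 21.4 CPM (log2 0.62, SE 0.11, edgeR adjusted p = 0.02). Cxcl14 was lost without any 1 of the 4 untreated libraries, and Cxcl5 was not. Among 29 inflammatory cytokine and receptor genes only Il1rn, the interleukin 1 receptor antagonist, passed, with a rise of 0.34 (SE 0.06, edgeR adjusted p = 0.0247). The Il1rn call was lost without any 1 library except the deficient R848 replicates. Tnf stood at 22.8 and 28.1 against 24.6 and 23.6 CPM. None of 25 NF-kB genes passed (median -0.11), and of 25 Toll-like receptor and MyD88 genes only Tlr9 did, with a fall of 0.59 (SE 0.13, edgeR adjusted p = 0.0472) that was lost without any 1 of the 8 libraries (edgeR adjusted p from 0.0574 to 0.197). Tlr7, the receptor for R848, stood at 30.2 and 33.9 CPM in WT and 33.1 and 77.9 in KAT8-deficient libraries, so its deficient libraries differed from each other by more than the genotypes did.

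**Figure D3:**
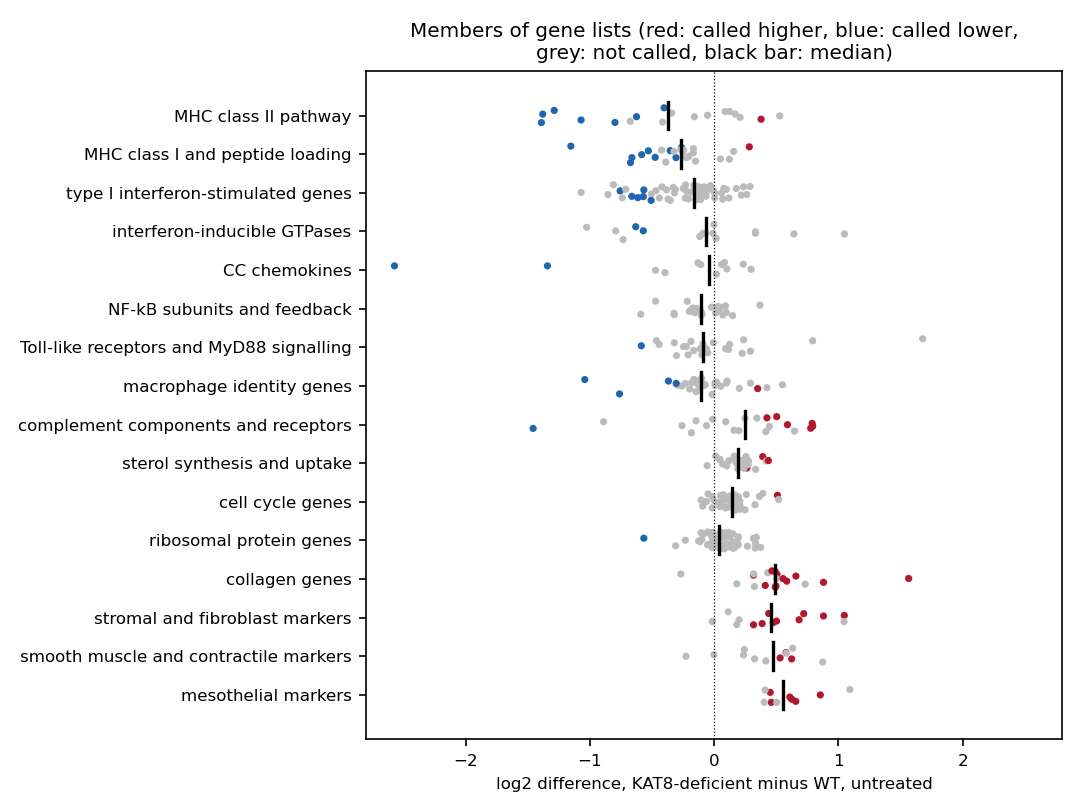
Log2 differences of the tested members of selected gene lists, 1 point per gene, with called members coloured (red higher, blue lower) and the list's median as a bar. The antigen presentation and interferon lists lie mostly left of zero and the collagen, stromal and mesothelial lists mostly right of it.

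Of 32 tested macrophage identity genes, 4 fell and 1 rose, with a median of -0.11, and 15 were lower and 5 higher without overlap between the groups. Over all genes tested, 1.36% were called lower and 2.91% higher, and 25.5% were lower and 24.9% higher without overlap. The summed level of the identity list was 73715 to 74814 CPM in WT and 58127 to 61693 in KAT8-deficient libraries. Most of the fall in this sum came from Lyz2, described next, and Gpnmb, with means of 24097.5 CPM in WT and 18671.7 in KAT8-deficient libraries. The sum therefore does not describe the list as a whole. Lyz2 (chromosome 10, 117277331 to 117282321), the macrophage lysozyme gene, stood at 11475 and 11750 CPM in WT and 5944 and 5340 in KAT8-deficient libraries, 2.06-fold lower without overlap (log2 -1.04, SE 0.07, edgeR adjusted p = 0.000304). Its neighbour Lyz1, at 117287797 to 117292868, stood at 20.0 and 19.1 against 81.2 and 73.8 CPM, 3.96-fold higher. Lyz1 and Lyz2 are near-identical, so reads may have been divided between them, and together the pair fell from 11495 and 11769 to 6025 and 5414 CPM. Lyz2 is also the locus that carries Cre in a strain widely used to delete genes in macrophages. Whether these mice carried Cre there is not given, so an effect of KAT8 deficiency on Lyz2 and one of an altered Lyz2 allele cannot be told apart. The other identity genes that fell were Ly6e (-0.76, SE 0.14), Gpnmb (-0.37, SE 0.05) and Bhlhe40 (-0.31, SE 0.06), and the transcription factor gene Maf rose (0.35, SE 0.07). Spi1 (-0.10, SE 0.07), Mertk (-0.11, SE 0.09) and Itgam (-0.15, SE 0.37) did not pass. Itgam was uneven within both genotypes, at 553 and 373 CPM in WT and 497 and 340 in KAT8-deficient libraries, and it overlaps Gm49368 on the same strand. Of the 5 calls, 2 were left without WT untreated replicate 1 or 2 and 1 without KAT8-deficient untreated replicate 1 or 2, and Lyz2 was called in every such fit. Of 7 monocyte markers, Hp, encoding haptoglobin, fell by 1.05 (SE 0.13, edgeR adjusted p = 0.00644) and Ly6c2 fell from 1.35 and 1.14 to 0.262 and 0.214 CPM. Ly6c2 was thus low throughout, and its call was lost without any 1 library except the deficient R848 replicates, and with the DESeq2 Wald test.

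Of 12 tested genes of arginine and itaconate metabolism, 1 rose, 3 fell and 8 did not pass, with a median of -0.03. Arg1 (arginase), which turns arginine into ornithine and is a marker of alternative activation, stood at 10.7 and 9.56 CPM in WT and 31.3 and 30.3 in KAT8-deficient libraries, 3.04-fold higher and called whichever library was left out. Acod1, whose enzyme makes itaconate, fell from 118 and 121 to 52.3 and 63.6 CPM (log2 -1.04, SE 0.17, edgeR adjusted p = 0.0157). Slc7a2, an arginine transporter, fell from 92.3 and 56.3 to 39.8 and 31.6 CPM (log2 -1.06, SE 0.20, edgeR adjusted p = 0.0274). Ass1, which rebuilds arginine from citrulline, fell from 22.1 and 25.8 to 13.6 and 14.8 CPM (log2 -0.75, SE 0.12, edgeR adjusted p = 0.0129). No group overlapped in these 4 genes, although the WT values of Slc7a2 were far apart. Acod1 was lost without any 1 of the 4 untreated libraries (edgeR adjusted p from 0.0575 to 0.136). Of the 3 falls, 1 was called without WT untreated replicate 1 or 2 and 0 without either deficient untreated replicate. Slc7a2 was lost without WT untreated replicate 1 or either deficient replicate (largest edgeR adjusted p = 0.147), and Ass1 without WT untreated replicate 2 or either deficient replicate (largest edgeR adjusted p = 0.112). Arg1 was the 1 gene of 16 tested in the alternative activation list that passed, and Mrc1 (-0.05, SE 0.06) and Chil3 (-0.34, SE 0.09, edgeR adjusted p = 0.0839) did not.

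Cdkn1c and Mgll fell steeply and with little spread. Cdkn1c (chromosome 7, 143458339 to 143461050), an imprinted inhibitor of cyclin-dependent kinases, stood at 188 and 207 CPM in WT and 37.6 and 39.3 in KAT8-deficient libraries, 5.12-fold lower (log2 -2.36, SE 0.08, edgeR adjusted p = 7.05e-06). Mgll, encoding monoacylglycerol lipase, which cleaves the endocannabinoid 2-arachidonoylglycerol, stood at 89.6 and 96.5 against 22.3 and 21.9 CPM, 4.21-fold lower (log2 -2.07, SE 0.07, edgeR adjusted p = 7.05e-06). In both genes the groups lay far apart relative to the spread within them. Of 12 tested imprinted growth genes, Cdkn1c was the only one that fell and Grb10 the only one that rose (0.35, SE 0.07), and the list's median was 0.40. Of 24 genes for cell cycle inhibitors and p53 targets, Rb1 (-0.44, SE 0.09) fell beside Cdkn1c, and Cdkn1a stood at 0.04 (SE 0.08). Of 43 cell cycle genes only Cdk4 passed, with a rise of 0.51 (SE 0.06, edgeR adjusted p = 0.00395), while 36 of the 43 had a positive difference and the median was 0.14. Over all genes tested, 48.6% had a positive difference and 2.91% were called higher.

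Many matrix and stromal genes were higher in KAT8-deficient cultures. Collagens build the extracellular matrix and are made mainly by fibroblasts and other stromal cells. Of 19 tested collagen genes 12 rose and 0 fell, with a median of 0.49, against 2.91% of all genes called higher. Of 14 stromal and fibroblast markers 9 rose, of 12 contractile markers 3, of 10 mesothelial markers 6 and of 7 small leucine-rich proteoglycans 3, and 0 fell in any of them. These lists share members; together they held 56 tested genes, of which 28 rose, or 6.85% of all genes called higher, with a median of 0.50. Col3a1, a fibrillar collagen, stood at 257 and 267 CPM in WT and 508 and 458 in KAT8-deficient libraries (log2 0.88, SE 0.12, edgeR adjusted p = 0.00805). Lum (lumican) stood at 25.2 and 25.6 against 53.4 and 51.6 CPM (log2 1.05, SE 0.14, edgeR adjusted p = 0.00851), and Dcn (decorin), which binds collagen fibrils, at 282 and 246 against 437 and 434 CPM (log2 0.72, SE 0.10, edgeR adjusted p = 0.00923). The groups were apart for all 3. Pdgfra, a receptor of stromal cells, rose by 0.44 (SE 0.07, edgeR adjusted p = 0.0116), Acta2, smooth muscle actin, by 0.58 (SE 0.07, edgeR adjusted p = 0.00624), and Thbs2, encoding thrombospondin 2, by 1.25 (SE 0.16, edgeR adjusted p = 0.00624). Upk3b, a uroplakin made by mesothelium, rose from 173 and 160 to 266 and 246 CPM (log2 0.62, SE 0.09, edgeR adjusted p = 0.0111). Col1a1, at 773 and 1157 against 1146 and 1044 CPM, was uneven between the WT libraries and did not pass (log2 0.18, SE 0.17, edgeR adjusted p = 0.607).

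As whole lists, the summed level of the stromal markers was 4167 to 4708 CPM in WT and 5698 to 5938 in KAT8-deficient libraries. That of the collagen genes was 3803 to 4529 against 5343 to 5597, and that of the mesothelial markers 548 to 549 against 783 to 817. The mean sums were 1.31-fold, 1.31-fold and 1.46-fold higher, and none of the ranges overlapped. Of 10 endothelial markers, 4 were tested and 0 passed. More stromal cells in the deficient cultures and more matrix transcript per cell cannot be told apart. The stromal count of 9 became 2, 5, 0 and 3, the collagen count of 12 became 2, 8, 1 and 4, and the mesothelial count of 6 became 1, 1, 0 and 1 without WT untreated replicate 1 or 2 and KAT8-deficient untreated replicate 1 or 2. In the same order, the contractile count of 3 became 1, 2, 0 and 2 and the proteoglycan count of 3 became 2, 2, 0 and 1. With these omissions the medians lay between 0.43 and 0.49 for the stromal list, 0.52 and 0.62 for the mesothelial, 0.43 and 0.58 for the collagen, 0.38 and 0.55 for the contractile and 0.52 and 0.84 for the proteoglycan list. Col5a2 (log2 0.49, SE 0.05, edgeR adjusted p = 0.00395) was the collagen gene among those named here that was called whichever library was left out.

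Complement genes, whose products tag and lyse microbes, included several that rose. Of 21 tested, 6 rose and 1 fell, with a median of 0.25, against 2.91% of all genes called higher and 1.36% called lower. C4b, of the classical and lectin pathways, stood at 29.5 and 29.3 CPM in WT and 49.5 and 52.3 in KAT8-deficient libraries (log2 0.79, SE 0.09, edgeR adjusted p = 0.00367). The inhibitors Serping1 (C1 inhibitor, log2 0.78, SE 0.09, edgeR adjusted p = 0.00469) and Cd55 (decay-accelerating factor, log2 0.79, SE 0.07, edgeR adjusted p = 0.00152) rose by like amounts. C3, the central component, rose by 0.42 (SE 0.06), the protease gene C1ra by 0.50 (SE 0.08) and C5ar1, the receptor for C5a, by 0.59 (SE 0.07). Cfb, factor B of the alternative pathway, was the exception, at 48.6 and 57.3 against 18.7 and 19.8 CPM (log2 -1.46, SE 0.30, edgeR adjusted p = 0.0359). Cfb overlaps Gm20547 on the same strand, so its reads are uncertain, and its call was lost without any 1 of the 4 untreated libraries (edgeR adjusted p from 0.105 to 0.214) and without either WT R848 replicate (0.0639 and 0.0615). The count of 6 became 5, 5, 4 and 4 in these fits, and C4b, Serping1 and Cd55 were called in each. Stromal cells make several complement components too, and their markers moved with these genes as given above, whose part in the result was not tested.

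Metabolic lists showed small shifts with few calls. Sterol synthesis and uptake genes were positive in 24 of 25 tested, with a median of 0.19, and 3 rose, among them Fdps, encoding farnesyl diphosphate synthase (0.39, SE 0.07). Over all genes tested, 48.6% were positive and 2.91% were called higher. Fdps overlaps Gm43738 on the same strand and is uncertain. Without WT untreated replicate 1 or either deficient untreated replicate 0 genes of the list were called, and 1 was called without WT untreated replicate 2 or either WT R848 replicate, while 5 were called without either deficient R848 replicate. Of 23 glycolysis genes only Tpi1 rose (0.37, SE 0.07), with a median of 0.14 over the list. Of 32 fatty acid and triglyceride genes Fasn, fatty acid synthase, rose (0.36, SE 0.08) and Mgll fell. The Fasn call was lost without any 1 library except WT untreated replicate 2. Of 17 prostaglandin and leukotriene genes Ptgs1 (cyclooxygenase 1; 0.40, SE 0.06), Ptgis (prostacyclin synthase; 0.41, SE 0.06) and Hpgd, which inactivates prostaglandins (1.16, SE 0.24), rose, a count of 3 that became 0, 1, 0 and 1 without WT untreated replicate 1 or 2 and KAT8-deficient untreated replicate 1 or 2. None of 13 mitochondrially encoded genes passed. All 13 had a negative difference (median -0.11), but their summed level was 21445 and 18361 CPM in WT and 18392 and 18976 in KAT8-deficient libraries, so WT replicate 1 alone was high, and the median ran from -0.21 to 0.01 when 1 library was left out. Of 58 nuclear genes of oxidative phosphorylation only Cox6a1 passed (0.33, SE 0.08; list median 0.00), a call lost without any 1 of the 8 libraries. Neither the 18 LXR and PPAR target genes nor the 7 Fc receptor genes held a called member. Of 75 ribosomal protein genes Rpl24 alone passed, with a fall of 0.57 (SE 0.13), and it overlaps Gm28037 on the same strand. The Rpl24 call was lost without any 1 library except KAT8-deficient untreated replicate 1. Of 29 antioxidant genes controlled by NRF2, Gclm, a subunit of the glutathione-making ligase, fell by 0.57 (SE 0.08) and Mt1 rose by 0.43 (SE 0.08).

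Several further genes changed strongly. Serpina3n, a serine protease inhibitor, rose from 3.03 and 4.29 to 9.03 and 9.47 CPM (log2 1.35, SE 0.17, edgeR adjusted p = 0.00616). Clca3a2 rose by 1.39 (SE 0.12, edgeR adjusted p = 0.00164) and Il18r1, a chain of the interleukin 18 receptor, by 1.23 (SE 0.20, edgeR adjusted p = 0.0139). Of the falls, Gdf3, a ligand of the TGF-beta family, went from 37.7 and 35.9 to 16.8 and 16.0 CPM (log2 -1.16, SE 0.10, edgeR adjusted p = 0.0016) and Lrrc27 from 70.6 and 68.8 to 30.5 and 32.6 CPM (log2 -1.14, SE 0.07, edgeR adjusted p = 0.000213). Dcstamp, needed for the fusion of macrophages and osteoclasts, fell from 4.85 and 4.34 to 1.47 and 1.71 CPM (log2 -1.53, SE 0.19, edgeR adjusted p = 0.00557). Clca3a2, Gdf3 and Lrrc27 kept their calls without any 1 library. Serpina3n and Dcstamp were lost without KAT8-deficient untreated replicate 1 (edgeR adjusted p = 0.0512 and 0.0636), and Il18r1 without it or WT untreated replicate 1. Adam17, the sheddase that releases TNF from the cell surface, fell from 349 and 339 to 176 and 182 CPM (log2 -0.94, SE 0.17, edgeR adjusted p = 0.0228), lost without any 1 untreated library (edgeR adjusted p from 0.0818 to 0.159), and Adam8 rose by 0.53 (SE 0.06, edgeR adjusted p = 0.00314).

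Several called genes lie close to Kat8 on chromosome 7. Within 2 megabases of Kat8, 101 other genes were tested and 7 were called (6.93%, against 4.27% of all genes), 5 higher and 2 lower. Gdpd3, a lysophospholipase D gene at 126766334 to 126775649, stood at 2.52 and 2.72 CPM in WT and 49.1 and 43.4 in KAT8-deficient libraries, 17.7-fold higher. Mapk3, encoding the kinase ERK1, ends just before Gdpd3 on the same strand and rose from 198 and 210 to 391 and 370 CPM (log2 0.90, SE 0.09, edgeR adjusted p = 0.00268). Coro1a, the actin regulator coronin 1A, rose by 0.86 (SE 0.08, edgeR adjusted p = 0.00164) and Lat, an adaptor of T cell signalling, by 1.18 (SE 0.12, edgeR adjusted p = 0.0023). Itgal, the alpha chain of the integrin LFA-1, fell from 154 and 175 to 73.7 and 77.4 CPM (log2 -1.12, SE 0.11, edgeR adjusted p = 0.0023), and Spn, encoding the sialoprotein CD43, by 0.96 (SE 0.20, edgeR adjusted p = 0.0348). For each of these the WT and deficient libraries were apart. Trim72 was low, at 0.280 and 0.217 against 1.10 and 1.39 CPM (edgeR adjusted p = 0.0347). Within 5 megabases, 10 of 129 genes were called (7.75%). Chromosome 7 as a whole had 52 called of 1049 tested (4.96%), within the range over chromosomes from 2.19% to 6.15%. Spn and Trim72 were lost without any 1 untreated library, and the other 5 kept their calls without any 1 library. The predicted gene Gm49388 lay far lower but did not pass (edgeR adjusted p = 0.126), with 21.9 CPM in WT replicate 1 and 0 in WT replicate 2.

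**Figure D4:**
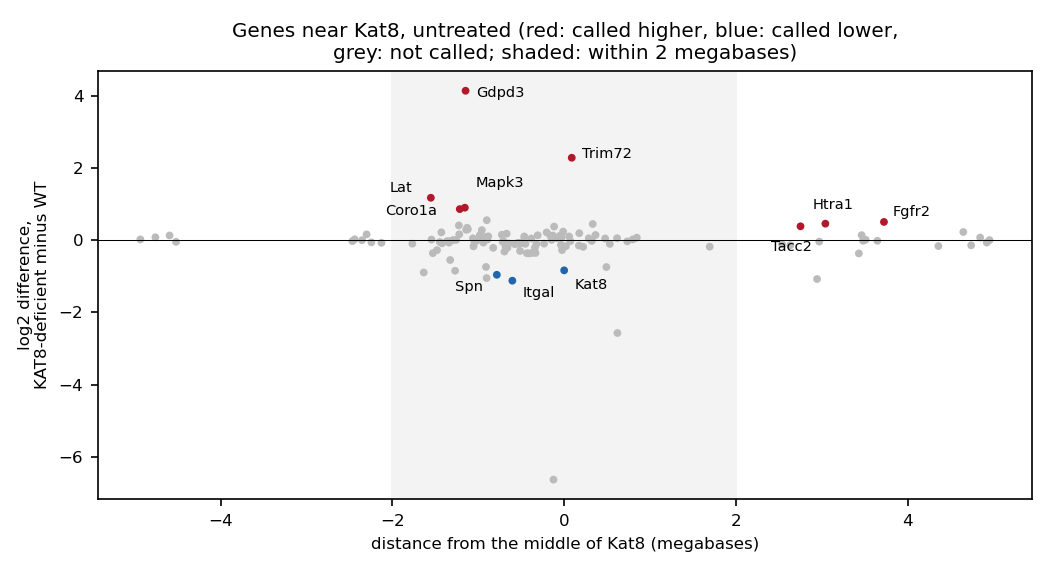
Genes within 5 megabases of Kat8, placed by distance from its middle (x axis, megabases) and by log2 difference, KAT8-deficient minus WT (y axis). Red points were called higher, blue lower and grey not called, and shading marks the inner 2 megabases, where Gdpd3, Mapk3, Coro1a, Lat and Trim72 lie above zero and Itgal, Spn and Kat8 below. The grey point far below zero is Gm49388, detected well in 1 WT library.

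All 3 tested genes from a list of those known to differ among C57BL/6 substrains were called too. Wdfy1 stood at 28.4 and 22.8 CPM in WT and 93.1 and 95.5 in KAT8-deficient libraries (log2 1.88, SE 0.11, edgeR adjusted p = 0.000115). Ide, insulin-degrading enzyme, stood at 150 and 134 against 78.6 and 75.8 CPM (log2 -0.88, SE 0.07, edgeR adjusted p = 0.000713), and Nnt, the mitochondrial transhydrogenase, at 42.5 and 41.5 against 30.8 and 29.8 CPM (log2 -0.47, SE 0.07, edgeR adjusted p = 0.0111). In each the groups were apart. Wdfy1 and Ide kept their calls without any 1 library, and Nnt was lost without WT untreated replicate 1 or either deficient untreated replicate. Dynlt1b, which has near-identical copies and so an uncertain count, rose from 5.5 and 5.1 to 16.4 and 17.3 CPM (log2 1.66, SE 0.12, edgeR adjusted p = 0.000546). The strains of the mice are not given, so KAT8 deficiency and a difference in background cannot be told apart for any gene in this comparison. Sequence linked to Kat8 is a further difference that cannot be told apart for the neighbours of Kat8. The same holds for genes farther along chromosome 7, such as Cdkn1c, Irf7 and Adam8. It does not extend to Ide and Dynlt1b, which lie on chromosomes 19 and 17. Chromosome 17, where the class II chain genes and H2-K1 lie, had 40 called of 699 tested (5.72%, against 4.27% of all genes). Of these, 18 were higher and 22 lower.

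The same genotype comparison was made in the cells given R848, which share no library with the untreated ones but share the estimate of the spread. Under R848, 1911 genes (13.6%) were called, 1143 (8.14%) higher and 768 (5.47%) lower. Of the 409 genes higher in untreated cells, 315 were also called higher under R848, and of the 191 lower ones 110 were also lower. Together they made up 70.8% of the untreated calls and 22.2% of the R848 calls. In all, 565 of the 600 untreated calls (94.2%) had the same sign under R848. The median difference of the untreated-higher genes was 0.51 untreated and 0.57 under R848, and that of the untreated-lower genes -0.63 and -0.47, where the first value of each pair is fixed in sign by the choice of genes. H2-Aa differed by -1.51 under R848 against -1.39 untreated, and Col3a1 by 1.17 against 0.88. Cdkn1c differed by -2.11 against -2.36, and Lyz2 by -1.14 against -1.04.

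Whether the difference itself changed was tested as an interaction, R848 difference minus untreated difference. Over all genes 32 passed (0.228%), and of the 600 untreated calls 6 did (1%). The 6 became 11 and 14 without WT untreated replicates 1 and 2, 3 without KAT8-deficient untreated replicate 1, and 11 and 42 without KAT8-deficient R848 replicates 1 and 2, counted over the untreated calls of each fit. Pheta1, an endosomal sorting adaptor, stood at 1.54 and 2.55 CPM in WT and 10.02 and 9.41 in KAT8-deficient cells untreated, and at 9.12 and 9.39 against 1.98 and 2.26 under R848. Its order thus turned over (interaction -4.38, edgeR adjusted p = 0.00137). Src, a tyrosine kinase gene, also turned over, from 37.7 and 43.0 against 66.2 and 68.4 CPM untreated to 72.2 and 80.4 against 47.0 and 50.6 under R848 (interaction -1.38, edgeR adjusted p = 0.00544). For Mgll the difference was smaller under R848, since the deficient libraries stood at 57.2 and 56.7 CPM under R848 while WT stood at 93.0 and 101 (interaction 1.31, edgeR adjusted p = 0.00291). These 3 interactions passed under each setting tried. Vcam1, an adhesion molecule gene, and Cebpd, a transcription factor gene of inflammation, were higher untreated and lower under R848 in deficient cells (interactions -0.91 and -1.09, edgeR adjusted p = 0.0446 and 0.0295). Both were near the threshold: Vcam1 passed without either deficient R848 replicate but was lost without any other library (edgeR adjusted p from 0.107 to 0.155), and Cebpd passed without deficient R848 replicate 2 but was lost without any other library (0.0529 to 0.12). Their untreated calls were no firmer: that of Cebpd (edgeR adjusted p = 0.0473) was lost without any 1 of the 8 libraries, and that of Vcam1 (0.0419) without any 1 except the deficient R848 replicates. The sixth gene, Gm20716, is predicted and overlaps Adnp and Dpm1 on the same strand, so its reads are uncertain. It had 479 and 212 counts in untreated WT, 0 in both untreated deficient libraries, 211 and 293 in WT under R848 and 255 and 330 in deficient cells under R848.

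**Figure D5:**
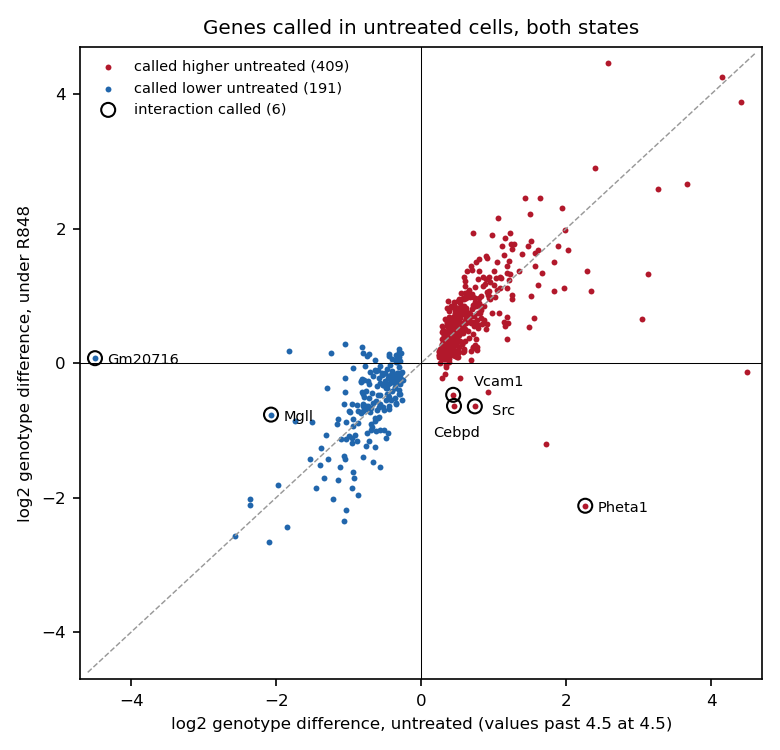
The 600 genes called in untreated cells, by their log2 genotype difference untreated (x axis, values past 4.5 drawn at 4.5) and under R848 (y axis), red for those higher and blue for those lower untreated. The dashed line marks equal differences, most points lie in the same-sign quadrants, and rings mark the 6 genes that passed the interaction test.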

How the data were processed

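Total RNA from bone-marrow-derived macrophages was made into poly(A)-selected libraries with a Vazyme kit, per the labels' protocols. The authors deposited 1 table of raw read counts per gene and library, made before this work. The submitters' processing notes name HISAT2, StringTie 1.3.0, edgeR and the mouse build mm10, without roles or settings. Whether counting used strand is not stated. Irf7, Cebpd, Rb1 and Rfxank each overlap a gene with more counts on the opposite strand, so their reads are uncertain as well. Symbols and positions came from GENCODE M21 on GRCm38 (mm10), which named 34344 of 34745 gene IDs.

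Genes with low counts were removed with filterByExpr, which left 14040 genes with 99.95% of the counts. Total counts per library in all groups ran from 18550977 to 21384532, so 3 counts, the limit that a count of 0 allows, correspond to 0.14 to 0.163 CPM (counting error only). A quasi-likelihood model in edgeR 4.0.16 (R 4.3.3, limma 3.58.1) was fitted to all 8 libraries with TMM scaling, 1 coefficient per group and no covariate, leaving 4 residual degrees of freedom. Benjamini-Hochberg adjustment ran over all genes tested at a threshold of 0.05. SEs were derived from the test statistic. An exact permutation test of 2 against 2 libraries cannot go below a two-sided p of 0.333. DESeq2 1.42.0 and the other settings are described with the sensitivity of the results. On simulated counts for 13844 genes with 200 changed in the untreated comparison, the test recovered 44.8% of changes of 0.5, 89.2% of changes of 1 and 100% of changes of 2 (log2), and called 11 unchanged genes. The simulation gave every gene the same spread and changed only genes above a minimum count. Its figures therefore do not cover genes with lower counts or spreads that differ between genes.

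The comparison, gene lists and genes named were chosen with earlier results of these data known. Named genes were the 15 largest rises and 15 largest falls of at least 5 CPM in the higher group with no overlap, the called members of each list (6 at most), Kat8, all class II genes, markers, neighbours of Kat8 and genes passing the interaction test. Genes outside this rule, named as uncalled members of a list or for the range of its values, and Gm49388, were chosen after their values were seen. RefSeq promoters matched 10555 of 14039 genes, and motif shares were counted without a test between gene sets. Some genes the rule names are not reported here.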

Additional observations from a re-analysis of the deposited data

Results flagged for a closer look

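In 6 genes called in untreated cells, the genotype difference under R848 differed from the untreated one by a direct test of the interaction. The change of the log2 difference was -4.38 in Pheta1, -1.38 in Src, -1.09 in Cebpd, -0.91 in Vcam1, 1.31 in Mgll and 11.47 in Gm20716. Pheta1, Src, Cebpd and Vcam1 were called higher untreated and lower under R848 in KAT8-deficient cells, although the untreated call of Cebpd was lost in 8 and that of Vcam1 in 6 of the 8 fits that leave out 1 library. Pheta1 rose on R848 in WT cells (log2 2.19, edgeR adjusted p = 0.000311) and fell in KAT8-deficient cells (-2.19, edgeR adjusted p = 0.00861). Mgll showed 0.06 on R848 in WT cells (edgeR adjusted p = 0.638) and rose by 1.36 in KAT8-deficient cells (edgeR adjusted p = 0.000464). The fitted value of Gm20716 rests on 0 counts in both untreated deficient libraries and is no bound: against 3 counts per library its untreated level was at least 106.7-fold lower than in WT.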

How the results depend on the processing

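Without a filter on low counts 294 genes were lower (against 191) and 53 of the genes called untreated also passed the interaction test (against 6), and with the DESeq2 Wald test 39 did. With the 4 untreated libraries alone 263 genes were higher (against 409) and 121 lower, a setting that gives no R848 or interaction value. With robust estimation of the spread 520 genes were higher and 247 lower, and 23 of the genes called untreated passed the interaction test. Testing against a fold of 1.2 with glmTreat left 77 higher and 43 lower, of which 60 and 34 were called the same way under R848. Leaving out 1 library gave 40 to 416 higher genes and 26 to 190 lower, 30 to 292 higher in both states, 17 to 99 lower in both, and 3 to 42 genes called untreated that passed the interaction test. The cause was not tested. No called difference of a named gene changed sign under any setting. Of the named genes that were not called, 5 changed sign when 1 library was left out: Col1a1 ran from -0.087 (without WT untreated replicate 1) to 0.51, Itgam from -0.45 to 0.16 (without WT untreated replicate 1) and 0.10 without deficient untreated replicate 2, Creb1 from -0.084 (without deficient untreated replicate 1) to 0.30, Rfxap from -0.0076 (without deficient untreated replicate 1) to 0.40, and Irf1 from -0.26 to 0.035 (without deficient untreated replicate 2). Among the interactions, Gm20716 was lost without deficient untreated replicate 1 or 2 or WT R848 replicate 1 and with robust estimation (edgeR adjusted p from 0.0508 to 0.0795).

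Same-numbered replicates did not deviate together (correlation 0.02 between the untreated groups). Each group gives a single difference between replicates, so this cannot show whether equal numbers mark a shared animal, dish or batch. The labels do not state it either. With a replicate block 369 genes were higher and 162 lower, 289 and 99 were so in both states, 4 genes called untreated passed the interaction test, and 5 of the 128 called genes named lost their call. With the block and the 4 untreated libraries alone, 438 were higher and 205 lower, on 1 residual degree of freedom. Replicates of a group differed by 7.41 to 11.96 times the variance of counting, so the spread between libraries exceeded counting error.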
